A study of Mus musculus with 3 samples.

Results

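The oligoadenylate synthetase (OAS) genes of the mouse were followed across 3 mRNA sequencing libraries of cultured hepatocytes. Members were taken by gene symbol from the deposited tables: Oas1a, Oas1b, Oas1c, Oas1g, Oas2, Oas3, Oasl1 and Oasl2, which are 8 of the 37620 gene identifiers listed. The family was chosen by its measured log2 differences between TUDCA and DMSO, because those of Oasl1 and Oasl2 had opposite signs. Their levels and differences are therefore a description, and no test is given for them. The libraries came from primary hepatocytes of C57BL/6 mice, labelled as passage 1 and grown on gelatin in medium with serum and insulin. One culture received the solvent DMSO, for a time that the labels do not give (1 library). The others received tauroursodeoxycholic acid (TUDCA), a taurine-conjugated bile acid also used as a chemical chaperone, labelled as 100 mM for 24 h (2 libraries). The dose is printed as labelled, and an error of its unit is possible. Culture time and treatment may thus differ together, and the design cannot separate them.

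OAS proteins are induced by interferon and sense double-stranded RNA. The active members then join ATP into 2-5A, short chains of adenylate linked 2′ to 5′, a second messenger that leads to the cutting of cellular and viral RNA. The OAS-like proteins carry ubiquitin-like repeats behind the synthetase fold. Mouse Oasl2 kept synthetase activity, whereas Oasl1 lacks it and is known for blocking translation of the mRNA of Irf7, the transcription factor that amplifies interferon production.

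Promoter windows were at hand from RefSeq (GRCm38.p6, from 250 bases before to 50 bases after the start of the gene) for 6 of the 8 members, all except Oas1b and Oas2. They are shown to set Oasl1 and Oasl2, whose differences had opposite signs, beside Oas1a and Oas1g, whose differences were alike. The interferon-stimulated response element was searched as GAAANNGAAA on both strands, and AAANNGAAA, which lies inside every match of the first, was searched as a shorter form. The stretches below run 5′ to 3′ on the strand of each gene. Capitals mark AAANNGAAA or its reverse complement in Oasl1 and GAAANNGAAA or its reverse complement in Oas1a, Oas1g, Oas1c and Oas3. The Oasl1 stretch is chr5:114922990-114923142 (plus strand) and the Oasl2 stretch is chr5:114896684-114896925 (plus strand). The stretches on the minus strand are chr5:120907526-120907555 for Oas1a, chr5:120887614-120887643 for Oas1g, chr5:120812575-120812634 for Oas1c and chr5:120777690-120777769 for Oas3.
Oasl1: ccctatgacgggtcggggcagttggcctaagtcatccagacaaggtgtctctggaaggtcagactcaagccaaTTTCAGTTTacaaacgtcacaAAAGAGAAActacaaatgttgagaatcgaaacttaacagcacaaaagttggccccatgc
Oasl2: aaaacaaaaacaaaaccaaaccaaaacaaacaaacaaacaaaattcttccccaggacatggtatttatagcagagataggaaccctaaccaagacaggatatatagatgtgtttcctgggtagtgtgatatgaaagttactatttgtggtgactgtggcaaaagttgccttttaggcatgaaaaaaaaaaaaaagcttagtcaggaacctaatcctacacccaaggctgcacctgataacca
Oas1a: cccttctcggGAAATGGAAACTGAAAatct
Oas1g: tgcccttctcggGAAATGGAAACTGAAAat
Oas1c: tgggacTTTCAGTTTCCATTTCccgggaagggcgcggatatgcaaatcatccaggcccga
Oas3: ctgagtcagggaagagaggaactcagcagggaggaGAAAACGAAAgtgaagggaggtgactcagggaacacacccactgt

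The longer motif was present in 4 of the 6 member windows, in Oas1a, Oas1g, Oas1c and Oas3. It was present in 3.44% of all 32851 promoter windows of this length. Oas1a and Oas1g each held a pair of overlapping matches just before the start, at positions -20 to -5 and -18 to -3. Oas1g also held a separate match of the shorter form at -143 to -135 on the opposite strand, which Oas1a lacked. Oas1c held an overlapping pair on the opposite strand at positions -114 to -99, and Oas3 a single match at -75 to -66. Oasl1 held only the shorter form, at -177 to -169 on the opposite strand and at -156 to -148, and that form occurred in 10.6% of all windows. Neither form was found in the Oasl2 window. A match describes letters in this window and says nothing of binding there. Windows and positions depend on the RefSeq start taken, and GENCODE M21 lists 6 transcripts of Oasl1 and 9 of Oasl2. Over the 250 bases before the start, Oas1a and Oas1g were 82.8% identical in a global alignment, whereas Oasl1 and Oasl2 were 41.4% identical. The other 13 pairs of members lay between 41.5% and 49.1%.

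**Figure D1:**
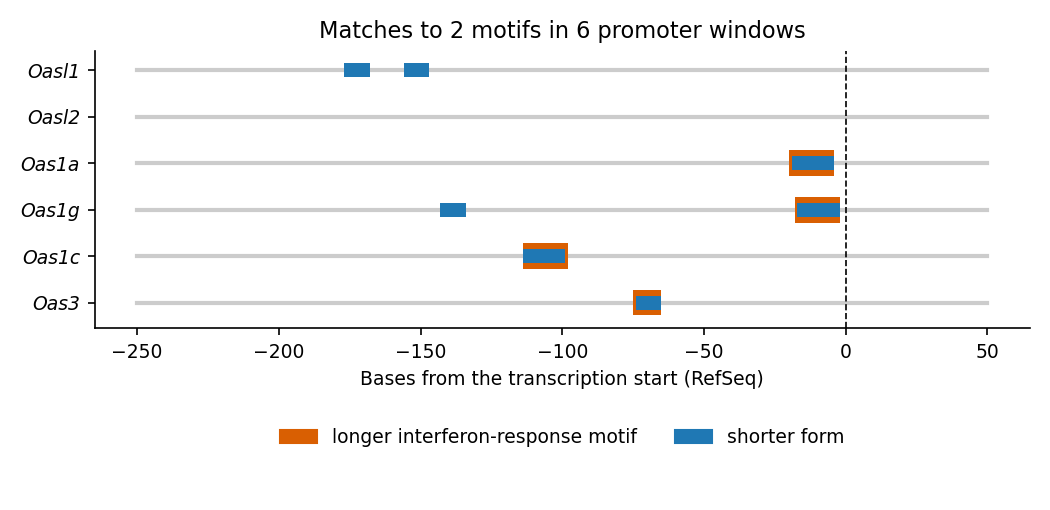
Matches to the longer (orange) and the shorter (blue) interferon-response motif in the 6 promoter windows, with position in bases from the RefSeq transcription start on the horizontal axis and 1 grey line per gene. Oas1a and Oas1g carry their overlapping matches at nearly the same place next to the start, and Oas1g also carries a separate shorter match at -143 to -135. Oasl1 carries the shorter form only, and Oasl2 carries neither.

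The DMSO library held 10774289 reads, TUDCA replicate 1 held 9757547 and TUDCA replicate 2 held 10575699. All values are RPKM, which divides the reads of a gene by its length and by the library's depth, as the authors deposited them. Differences are of log2(RPKM + 1), which understates changes of low genes. DMSO has no replicate, and TUDCA values are given per library or as mean ± SD of n = 2. Nothing in the labels says that the TUDCA libraries came from separate animals, so their spread may be technical. Intervals are exact 95% Poisson intervals from the smallest whole reads that fit the RPKM steps, and they cover counting error only. A gene may hold a multiple of these reads, and its intervals would then be narrower. All 10 hepatocyte markers were detected, and their summed level was 11970 RPKM in DMSO, against 15340 and 13354 RPKM with TUDCA. Markers of macrophages and Kupffer cells, a further source of interferon-induced transcripts, summed to 284 RPKM in DMSO, against 265 and 274 RPKM with TUDCA. Cd68 held 170 RPKM of this sum in DMSO. Within the list, Cd68, Marco, Cd5l and C1qa were lower in both TUDCA libraries. Adgre1, Clec4f, Csf1r, Vsig4, Ptprc and Lyz2 were higher in both. Of the markers that passed the filter, limma called 2 of 10 hepatocyte markers and 1 of 3 cholangiocyte markers higher with TUDCA. It called 0 of 9 macrophage markers (0 at an unadjusted p under 0.05 and 0 by voom). For all 11300 genes that passed, the limma share was 1.77% called higher and 2.65% called in either direction. The share at an unadjusted limma p under 0.05 was 10.8%, and voom called 268 genes. With shares this low, a count of 0 of 9 says little about macrophages. Markers of lymphocytes and dendritic cells summed to at most 0.817 RPKM, with Cd3e, Cd3g, Cd8a and Ncr1 among those at 0 throughout. The 8 endothelial markers summed to at most 4.99 RPKM and the 8 stellate cell markers to at most 12.1. The 6 cholangiocyte markers rested on Spp1, summed to 419 RPKM in DMSO, against 804 and 627 RPKM with TUDCA, and Cftr among them was at 0. The part of these cell types in the levels below was not tested.

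Oasl1 (ENSMUSG00000041827) was the most abundant member and the one that was lower with TUDCA in both libraries. Its level was 261 RPKM in DMSO (interval 247 to 276), 109.9 RPKM in TUDCA replicate 1 (100.2 to 120.2) and 125 RPKM in TUDCA replicate 2 (115 to 136). Both TUDCA libraries stood at less than 0.5 of the DMSO level, at 0.421 and 0.480 of it. The intervals of Oasl1 rest on a length of 443 nt, shorter than its annotated transcripts, so they may be too wide, and whether its TUDCA libraries differ beyond counting error is not read from them. The log2 differences from DMSO were -1.24 and -1.05, with a mean of -1.15. In bulk cultures, fewer cells that express a gene and less of its RNA per cell cannot be told apart. The DMSO level of Oasl1 lay above that of 96.0% of the 11300 genes whose mean reached 1 RPKM, and the TUDCA levels above 90.3% and 91.2%.

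Oasl2 (ENSMUSG00000029561) was second in abundance and had the opposite direction. It stood at 22.0 RPKM in DMSO (19.8 to 24.4), 35.9 RPKM in TUDCA replicate 1 (32.9 to 39.1) and 43.1 RPKM in TUDCA replicate 2 (39.98 to 46.5). The 3 intervals did not overlap, those of the 2 TUDCA libraries included, and they cover counting error only. Both TUDCA libraries lay above DMSO, at 1.63 and 1.96 times its level. Oasl2 was chosen by this difference, so the gap from DMSO is a description. The log2 differences were 0.68 and 0.94, with a mean of 0.81. The difference of Oasl1 minus that of Oasl2 was -1.92 in TUDCA replicate 1 and -1.99 in TUDCA replicate 2, so the TUDCA libraries were close in how far the pair stood apart.

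**Figure D2:**
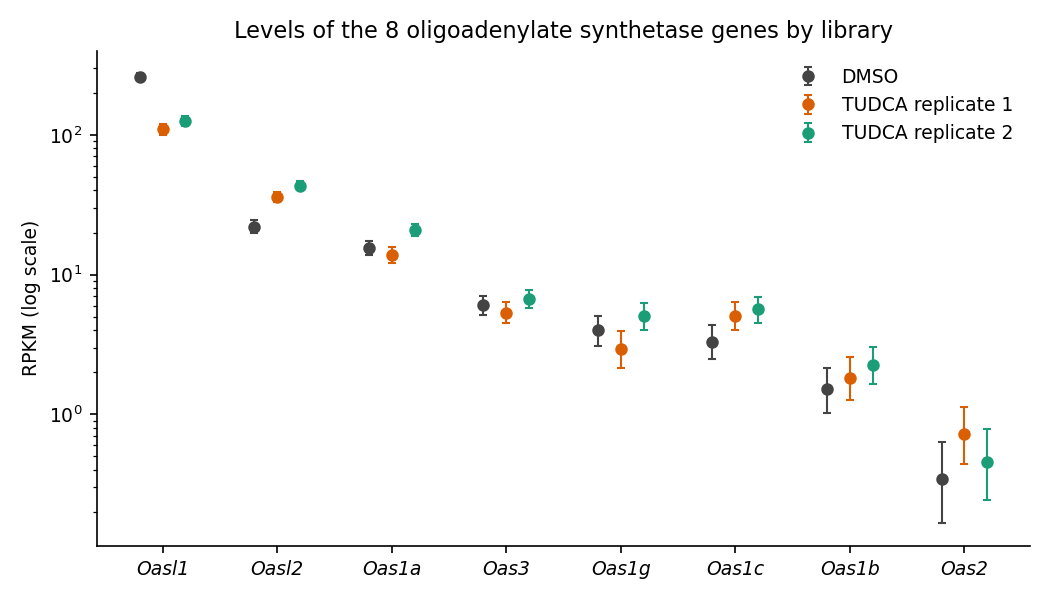
RPKM of the 8 members (log axis) in DMSO and the 2 TUDCA libraries, 1 point per library, ordered by DMSO level, with exact 95% Poisson intervals for counting error. Oasl1 goes from 261 to 109.9 and 125 RPKM while Oasl2 goes from 22.0 to 35.9 and 43.1 RPKM, and the points of Oas2 have wide, overlapping intervals.

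The summed level of the 8 members was 314 RPKM in DMSO, 176 in TUDCA replicate 1 and 209.5 in TUDCA replicate 2. Oasl1 made up 83.2% of that sum in DMSO and 62.6% and 59.8% with TUDCA. Oasl2 made up 7.02% in DMSO and 20.4% and 20.6% with TUDCA. Without Oasl1 the other 7 members summed to 52.8 RPKM in DMSO, against 65.7 and 84.2 RPKM with TUDCA, so these 7 together did not lower the sum of the family. Among them Oas1a, Oas1g and Oas3 were below DMSO in TUDCA replicate 1. The level of Oasl1 was 11.9 times that of Oasl2 in DMSO and 3.06 and 2.90 times with TUDCA. These ratios between genes depend on the gene lengths that the authors divided by. With the smallest whole reads per base of the longest GENCODE M21 transcript they were 4.98, 1.29 and 1.22, an alternative chosen after seeing the data. If Oasl1 held a multiple of its smallest reads, these 3 ratios would be higher by that multiple, and if Oasl2 did, lower. The smallest length of Oasl1, 443 nt, is shorter than its shortest M21 transcript (567 nt), so these 3 ratios may be too low. The ratio of a gene's RPKM between libraries does not depend on the length, whereas its difference of log2(RPKM + 1) does so slightly for abundant genes and more for low ones.

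**Figure D3:**
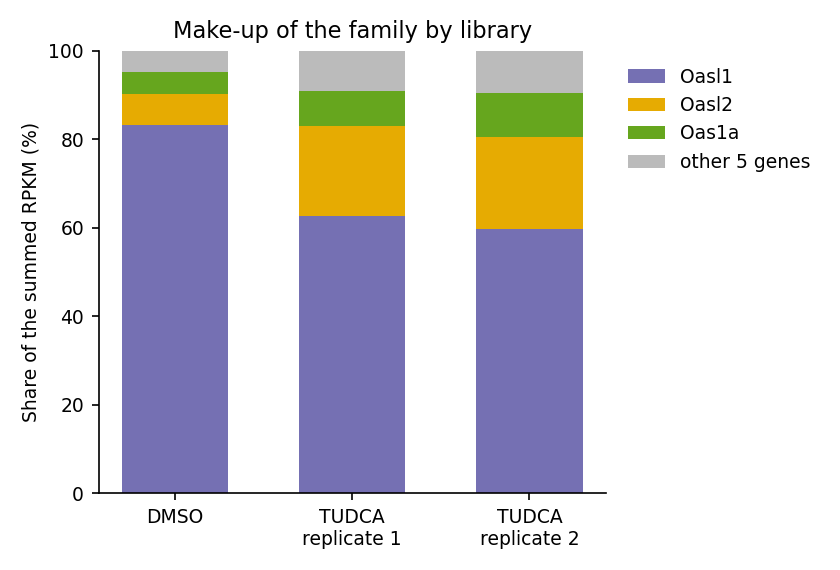
Share of the summed RPKM of the 8 members in each library (percent, bars start at 0), split into Oasl1, Oasl2, Oas1a and the other 5 genes. The Oasl1 share is 83.2% in DMSO and 62.6% and 59.8% in the TUDCA libraries.

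Oas1a (ENSMUSG00000052776), an active synthetase of the small class, came next in abundance. It stood at 15.6 RPKM in DMSO (13.8 to 17.5), 13.9 in TUDCA replicate 1 (12.2 to 15.8) and 20.98 in TUDCA replicate 2 (18.9 to 23.2). The TUDCA libraries thus lay on either side of DMSO, with log2 differences of -0.16 and 0.41. Its close paralog Oas1g (ENSMUSG00000066861) had the same order of libraries, with 3.99 RPKM in DMSO, 2.96 in TUDCA replicate 1 and 5.03 in TUDCA replicate 2. The log2 differences of Oas1g from DMSO were -0.33 and 0.27. For both genes the gap between the TUDCA libraries, 0.56 and 0.61 on the log2 scale, was larger than that of 94.0% and 95.5% of the 11300 genes. These genes share sequence: 57.6% of the 50-base windows of Oas1a transcripts in GENCODE M21 occur in another gene, and all 1057 of these are in Oas1g. No source used here says how such reads were split in counting, so the levels of Oas1a and Oas1g are uncertain and their likeness is not independent. None of the windows of Oasl1 and only 0.138% of those of Oasl2 occur in another gene.

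Oas1c (ENSMUSG00000001166) was above DMSO in both TUDCA libraries, with 3.32 RPKM in DMSO (2.49 to 4.33), 5.09 in TUDCA replicate 1 (4.00 to 6.38) and 5.63 in TUDCA replicate 2 (4.53 to 6.92). Its log2 differences were 0.50 and 0.62. The interval of TUDCA replicate 1 overlapped that of DMSO and the interval of replicate 2 did not. For Oas1c, 15.1% of windows occur in another gene, most often in Gm43069, an antisense gene that overlaps it in GENCODE M21. Oas1b (ENSMUSG00000029605), the gene tied to flavivirus resistance and annotated as a pseudogene in the reference strain, was at 1.51 RPKM in DMSO, against 1.83 and 2.25 RPKM with TUDCA. Its log2 differences were 0.18 and 0.38, and all 3 intervals overlapped (1.02 to 2.15, 1.26 to 2.57 and 1.64 to 3.02).

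The larger members, built of repeated synthetase units, were at low levels. Oas3 (ENSMUSG00000032661) stood at 6.06 RPKM in DMSO (5.18 to 7.04), 5.34 in TUDCA replicate 1 (4.48 to 6.32) and 6.72 in TUDCA replicate 2 (5.78 to 7.76). Its TUDCA libraries lay on either side of DMSO with overlapping intervals, and the log2 differences were -0.15 and 0.13. Oas2 (ENSMUSG00000032690) had 0.347 RPKM in DMSO, against 0.729 and 0.460 RPKM with TUDCA, from 10, 19 and 13 reads. Its intervals overlapped (0.167 to 0.639, 0.439 to 1.14 and 0.245 to 0.787). Overlap is not a test of a difference, and reads this few do not settle whether Oas2 differed. Oas2 was the 1 member with a mean under 1 RPKM, and it was left out of the fit across genes.

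In DMSO the order of levels ran Oasl1, Oasl2, Oas1a, Oas3, Oas1g, Oas1c, Oas1b, Oas2. Only the neighbours Oas1g and Oas1c had overlapping intervals in that library. In both TUDCA libraries Oas1c stood before Oas1g, and the order was otherwise as in DMSO. With TUDCA the means of Oas3 (6.03 ± 0.97 RPKM, SD, n = 2) and Oas1c (5.36 ± 0.39 RPKM, SD, n = 2) were closer together than the spread of Oas3. In all, 4 of the 8 members (Oasl2, Oas1c, Oas1b and Oas2) were above DMSO in both TUDCA libraries, 1 (Oasl1) was below in both and 3 lay on either side. Of the 11300 genes of the fit, 40.5% were above DMSO in both and 30.4% below in both. The 2 differences of a gene share the DMSO library, so their sign is not independent.

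**Figure D4:**
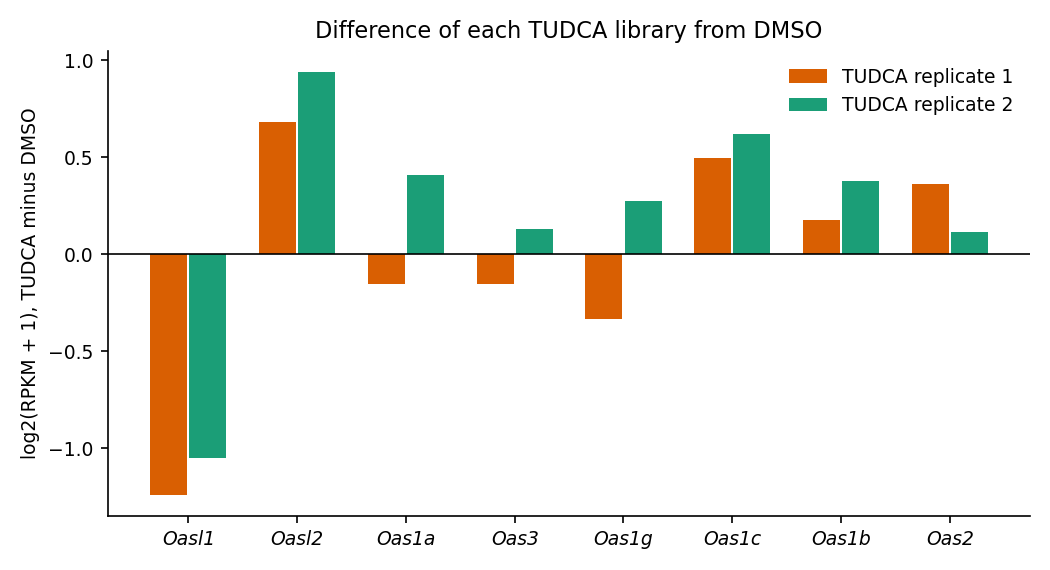
Difference of log2(RPKM + 1) of each TUDCA library from the DMSO library (vertical axis, bars from 0) for the 8 members in order of DMSO level. Oasl1 has bars of -1.24 and -1.05, Oasl2 of 0.68 and 0.94, and Oas1a, Oas3 and Oas1g have bars of opposite sign.

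None of the other genes of the 2-5A pathway was called. Abce1, a gene of ribosome recycling, had 22.8 RPKM in DMSO, against 27.4 and 18.2 RPKM with TUDCA (limma adjusted p = 0.995). Pde12, a phosphodiesterase that degrades 2-5A, had 11.9 RPKM in DMSO, against 12.3 and 9.99 RPKM with TUDCA (limma adjusted p = 0.970). Oas1d, Oas1e, Oas1f and Oas1h had no read in any library, and an expected count of up to 3 reads in each would still be possible. Abce1 and Pde12 were the 2 genes of this list that entered the fit, with none called by limma or by voom and none at an unadjusted p under 0.05. Over all 11300 genes limma called 299, a share of 2.65% (1.77% higher and 0.876% lower with TUDCA). That count fell to 0 without the filter on low values, with 1696 genes at an unadjusted p under 0.05.

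Interferon-stimulated genes carry out the antiviral programme to which the OAS family belongs, and limma called none of those listed (2.65% of all 11300 genes were called). Of 45 that entered the fit, 33 were above DMSO in both TUDCA libraries and 2 were below in both. Over all 11300 genes these shares were 40.5% and 30.4%, and both differences of a gene share the DMSO library. The median log2 difference of the 45 genes was 0.30, against 0.04 over all 11300 genes. At an unadjusted limma p under 0.05 there were 10 higher and 1 lower (10.8% of all 11300 genes in either direction), and voom called 1, Iigp1. This interferon-inducible GTPase had 11.4 RPKM in DMSO, against 25.6 and 16.7 RPKM with TUDCA (limma adjusted p = 0.0579). The lowest difference of the list belonged to Rsad2, which encodes the antiviral enzyme viperin, with 42.7 RPKM in DMSO, against 26.8 and 25.9 RPKM with TUDCA (-0.67 ± 0.24 SE, limma adjusted p = 0.120). The exonuclease gene Isg20 was the other one below DMSO in both, with 10.2 RPKM in DMSO, against 6.32 and 8.38 RPKM with TUDCA (limma adjusted p = 0.651). All 45 differences lay above that of Oasl1. None lay above that of Oasl2, which Iigp1 equalled to 3 decimals (0.811). Oasl1 and Oasl2 were chosen by these differences, so their places beside the list are a description only. In DMSO only 3 of the 45 genes, Ifitm3, Bst2 and Irf7, had a higher level than Oasl1, while 25 had a higher level than Oasl2. Of the 47 promoter windows of this list, which belong to 37 genes, 20 held the longer motif.

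**Figure D5:**
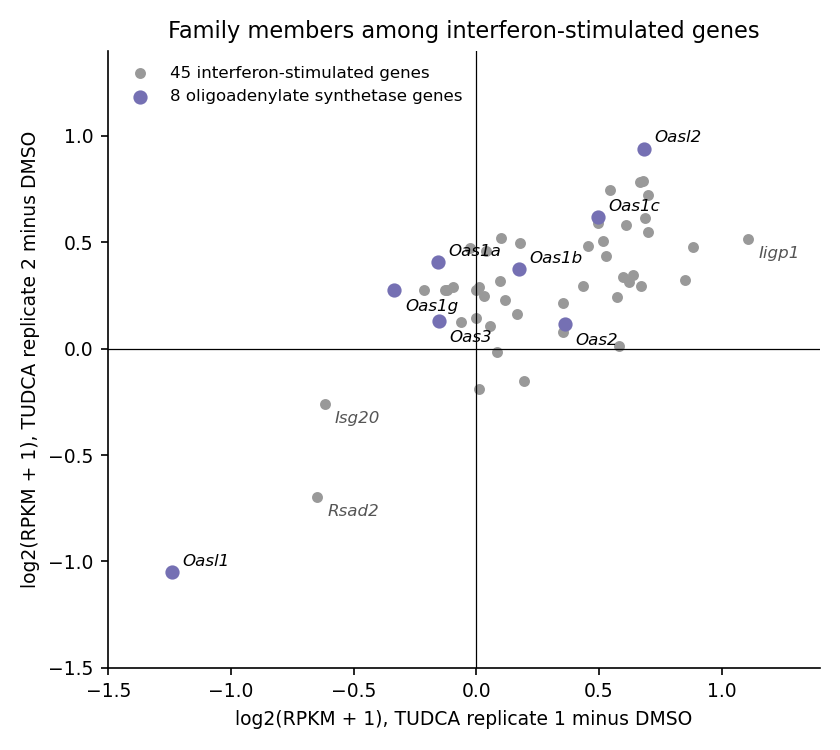
Difference of log2(RPKM + 1) from DMSO in TUDCA replicate 1 (horizontal axis) and TUDCA replicate 2 (vertical axis) for 45 interferon-stimulated genes (grey) and the 8 family members (purple). Both axes share the DMSO library. Oasl1 lies at -1.24 and -1.05, beyond Rsad2 and Isg20, and Oasl2 at 0.68 and 0.94 at the opposite end. The pair was chosen by these differences.

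Irf7, whose mRNA is the known target of the Oasl1 protein, had 279 RPKM in DMSO, against 316 and 393 RPKM with TUDCA (0.34 ± 0.20 SE, limma adjusted p = 0.594). The most abundant genes of the list were the membrane proteins Ifitm3, with 1268 RPKM in DMSO, against 1353 ± 261 with TUDCA, and Bst2, with 731 and 815 ± 111 RPKM. Lgals3bp had 226 RPKM in DMSO, against 262 ± 28 with TUDCA, Ifi27 had 179.6 and 198.6 ± 27.2, and the ubiquitin-like modifier Isg15 had 159 and 165 ± 39 RPKM. Limma adjusted p-values of these 5 genes were between 0.838 and 0.991. Irf9, a subunit of the factor that binds the interferon-stimulated response element, had 45.6 RPKM in DMSO, against 51.6 ± 2.9 RPKM with TUDCA (limma adjusted p = 0.900).

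Upstream, the 4 interferon genes of the list had at most 1 read in a library. Ifnb1, Ifna4 and Ifnl3 had no read in any library and Ifnl2 had 1 read in TUDCA replicate 2. Receptors and signalling genes were present: of 26 genes of interferon induction and signalling 19 entered the fit. Limma called none of these 19 (2.65% of all 11300 genes were called), and voom called none. At an unadjusted limma p under 0.05 there were 3 higher and 0 lower (10.8% of all 11300 genes in either direction). The median log2 difference of the 19 genes was 0.18, against 0.04 over all 11300 genes. It was 0.10 with quantile normalization and 0.12 without TUDCA replicate 1. The kinase gene Jak1 had 167 RPKM in DMSO, against 164 ± 28 with TUDCA, and the receptor gene Ifngr1 had 67.2 and 103 ± 27 RPKM (limma adjusted p = 0.991 and 0.150). Irf3, a factor that acts on the first wave of interferon-induced genes, had 66.3 RPKM in DMSO, against 58.5 and 66.9 RPKM with TUDCA (limma adjusted p = 0.969). The kinase gene Ikbke had 46.9 and 68.8 ± 10.3 RPKM, Irf5 had 49.9 and 45.8 ± 4.3, and the receptor gene Ifnar2 had 37.9 and 51.3 ± 3.2 RPKM (limma adjusted p = 0.248, 0.943 and 0.500).

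Genes beside the Oasl pair on the chromosome were taken by the order in RefSeq GRCm38.p6. Of those described here, only Gm13822 and 2210016L21Rik entered the fit. Limma called neither of them (2.65% of all 11300 genes were called). Gm13822, which lies next to both and overlaps Oasl1 on the opposite strand in GENCODE M21, had 2.15 RPKM in DMSO, against 1.78 and 1.91 RPKM with TUDCA (limma adjusted p = 0.955). The transcripts of Oasl1 share no 50-base window with those of Gm13822 on either strand. On the far side of Oasl1, 2210016L21Rik had 25.9 RPKM in DMSO, against 25.2 and 29.1 RPKM with TUDCA (limma adjusted p = 0.983). The genes on the far side of Oasl2, 4930519G04Rik and Ywhaq-ps2, had at most 0.159 RPKM in any library and did not enter the fit.

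Likeness to Oasl1 and Oasl2 was measured as the Euclidean distance between the pairs of log2 differences from DMSO, over 2 TUDCA libraries that share 1 DMSO library. Candidates had a DMSO level within 2-fold of the gene. For Oasl1 the nearest of 773 candidates were Hyou1, an ER chaperone (144 RPKM in DMSO, 62.9 and 60.0 with TUDCA, distance 0.205), and Manf, a secreted ER stress protein (330.3 RPKM in DMSO, 159 and 136 with TUDCA, distance 0.293). Next came the disulphide isomerase gene Pdia4 (distance 0.329) and the matricellular protein gene Ccn2 (distance 0.343). For Oasl2 the nearest of 3516 candidates was Irak3, an inhibitor of Toll-like receptor signalling, with 16.9 RPKM in DMSO, against 28.8 and 31.8 with TUDCA (distance 0.0843). Pdk2, a kinase of pyruvate dehydrogenase, Zc3h12a, an mRNA-degrading regulator of inflammation, and Slc7a2, a cationic amino acid transporter, followed at distances of 0.135 to 0.136. No neighbour of Oasl1 was as close as the 4 of Oasl2, whose candidates were also more numerous.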

How the data were processed

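Per the labels' protocols, mRNA was taken with oligo(dT) beads, and random-primed cDNA was sheared by nebulisation. The authors deposited RPKM values, 1 table per library. HTSeq, Bowtie2, TopHat2 2.0.7 and CASAVA appear in the submitters' processing notes with no role or order. The sources used here give no genome build, annotation, read length or strand setting. Symbols were matched by identifier for 32897 of 37620 rows. Of the list entries, 140 of 141 matched, 2 through an older symbol.

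Library totals and smallest whole reads were recovered from the RPKM steps for all 19146 genes above 0 (within 1e-04 reads). A gene may hold a multiple of these reads. Values were tested as log2(RPKM + 1) with limma 3.58.1 in R 4.3.3 (trend of the variance, Benjamini-Hochberg adjustment, threshold 0.05) on the 11300 genes whose mean reached 1 RPKM. The single residual degree of freedom came from the TUDCA pair, and DMSO was assumed to vary like it. Limma gave each gene the common spread at its level (SD 0.159 to 0.265), so p-values of genes with unequal TUDCA libraries are too small. In 1 simulated set of libraries of this design, unchanged genes made up a larger share of the calls than the threshold allows. Its spread was set by hand, not taken from these data, so it gives no error rate for the real calls.

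Members and gene lists were chosen with earlier results of these data known. Named genes are the members, all genes of the 2-5A list, called genes of the other 2 lists, 6 of each by level, Irf7, Ifnb1, Irf3, Irf9 and Isg15, the 4 genes most like Oasl1 and Oasl2 (without Gm and Rik symbols), and 2 RefSeq neighbours on each side; some genes that this rule names are not reported here. Rsad2, Isg20, Iigp1, Ifna4, Ifnl2 and Ifnl3 were named after their values were seen. Promoters were aligned with Biopython 1.88. Alternatives were another pseudocount (0.1), no filter or 5 RPKM, quantile normalization, median centring, no trend, voom on the smallest reads, and leaving out each TUDCA library.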

Additional observations from a re-analysis of the deposited data

How the results depend on the processing

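Oasl1 was below DMSO under all 9 alternatives (log2 difference -1.24 to -1.05) and Oasl2 above it under all 9 (0.68 to 0.94). The filter and trend settings cannot change the difference of a gene. Leaving out a TUDCA library gives the difference of the other library alone. The pair was also chosen by these differences, so the kept signs are a description and no independent check. Their difference ranged from -1.99 to -1.84, the latter with quantile normalization, with -1.99 when TUDCA replicate 1 was left out and -1.92 when replicate 2 was. Oas1b and Oas1c kept their sign under all 8 alternatives that gave a value and Oas2 under 3, whereas Oas1a, Oas3 and Oas1g each changed sign when 1 TUDCA library was left out. No filter left 0 of 19146 genes called by limma (1696 at an unadjusted p under 0.05) in place of 299 at the filter of 1 RPKM, and voom called 268; the cause was not tested. Among interferon-stimulated genes, 1 was called with a pseudocount of 0.1 and 1 by voom, Iigp1 both times (adjusted p = 0.0467 and 0.0444, with a range over alternatives of 0.0444 to 0.640). Leaving out a TUDCA library leaves no residual degree of freedom, so no count of calls was made there. No paired analysis was possible because the DMSO label carries no replicate number and there is 1 DMSO library. Depth limits Oas2, with 10, 19 and 13 reads in the DMSO and the TUDCA libraries.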

Other observations

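The length behind the RPKM of Oasl1 stands out. The smallest length that gave whole reads was 443 nt, shorter than the shortest of the 6 Oasl1 transcripts in GENCODE M21 (567 nt, the longest 2181 nt), so the authors' length may be a multiple of it. For Oasl2 it was 1510 nt, against transcripts of 632 to 3123 nt. Over 5685 genes with more than 300 reads in DMSO, this length was within 1 nt of the mean length of a gene's M21 transcripts in 1704 (30.0%) and of the longest transcript in 232 (4.08%). Where short transcripts are annotated, division by a mean length gives a higher RPKM than division by the longest transcript. Levels compared between members carry this choice, and so do differences of log2(RPKM + 1) of low members, whereas RPKM ratios of a member between libraries do not.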
